A study of Mus musculus with 8 samples.

Results

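The 5 control brains of a study of the Ohia mouse line were compared across 1 day of development, from E13.5 to E14.5 (days of embryonic age). They are 5 of the 8 libraries of the series, chosen by their control genotype label. The other 3 libraries, from mutant embryos homozygous for mutant alleles of both Sap130 and Pcdha9, were not used. Every control embryo was heterozygous (+/m) for both genes, so none of the brains was wild type. The tissue was the brain, with 1 library per embryo, and the libraries were made with a kit that selects polyadenylated RNA.

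The E13.5 group held controls 260-2 and 260-3. The E14.5 group held controls 195-2, 195-6 and 303-3. The first of these numbers was read as a litter number, which the labels do not define. On that reading the E13.5 embryos came from litter 260 alone and the E14.5 embryos from litters 195 and 303, so stage and litter cannot be told apart. P-values therefore measure the spread between embryos. Values are given in the order 260-2, 260-3 for E13.5 and 195-2, 195-6, 303-3 for E14.5, as CPM, that is counts per 1000000 counts of a library.

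Total counts ranged from 39173060 to 47838448 per library. The mitochondrially encoded genes took 2.05% to 2.57% of them. Genes that mark neural tissue were abundant in all 5 libraries, with Tubb3, a neuronal tubulin, at 1828 to 2088 CPM and the neural stem cell factor Sox2 at 97.4 to 125 CPM. In a principal component analysis, the first component (37.4% of the variance) placed the E13.5 libraries at -23.85 and -29.31 and the E14.5 libraries at 19.86, 1.38 and 31.93. Control 195-6 lay nearest to the E13.5 brains on this axis and at -36.65 on the second component (25.7%), apart from the other libraries, which lay between -1.01 and 18.89.

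A pair of libraries stood apart in named genes. Control 195-6 carried 4.28 CPM over 27 Hox genes, the patterning genes of the hindbrain and spinal cord, against 213 to 310 CPM in the other 4 brains. Control 260-2 was the only library with high Y-linked expression, with Eif2s3y at 89.0 CPM against at most 0.181 CPM elsewhere and Ddx3y at 69.1 CPM against at most 0.545 CPM. Kdm5d measured 73.8 CPM in it against 3.18 to 3.75 CPM in the others, and Uty 32.4 CPM against at most 1.03 CPM. Sap130 measured 50.6 and 47.5 CPM and then 52.4, 49.7 and 52.8 CPM, and Pcdha9 20.1 and 15.1 CPM and then 25, 20.9 and 21.5 CPM. Neither passed the test between the stages (adjusted p = 0.673 and 0.163), and counts per gene do not separate the alleles. Because of the libraries that stood apart, many results are also given without single libraries.

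**Figure D1:**
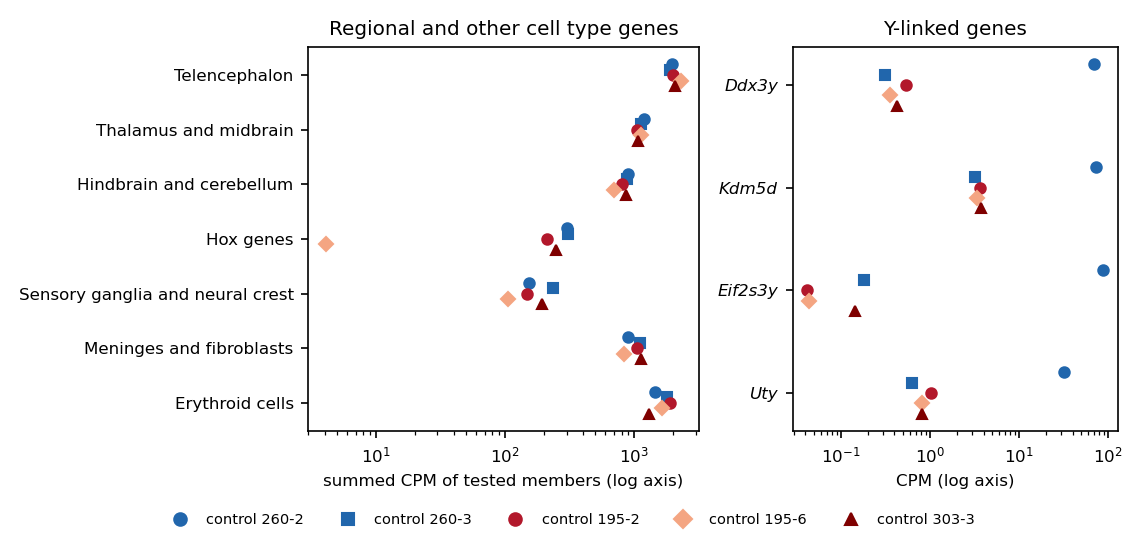
Summed CPM of the tested members of 7 gene lists (left) and CPM of 4 Y-linked genes (right) in each control library, on log axes, with 1 symbol per library. Control 195-6 lies far to the left of the other libraries for the Hox genes, and control 260-2 far to the right for the Y-linked genes.

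Between these days of mouse development, radial glia along the ventricles of the brain divide both to renew themselves and to give rise to neurons, directly or through intermediate progenitors. Neurons of the deep cortical layers are born before those of the upper layers. Young neurons then switch on receptors, channels and the release machinery that synapses need, while the blood changes from embryonic to adult globins.

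From E13.5 to E14.5, most listed genes of cell division and some of neural progenitors fell, and some genes of cortical neurons, receptors and synapses rose. Of 17498 genes tested, 452 (2.58%) were higher at E14.5 and 305 (1.74%) were lower at an adjusted p under 0.05, together 757 (4.33%). The changes were mostly small, with a median log2 change of 0.54 for the higher and -0.49 for the lower genes. At least 2-fold differences made up 43 of the higher and 26 of the lower calls. The values of the groups did not overlap for any called gene, so a lack of overlap is not further support for a single call. Over all genes tested, the 3 E14.5 values lay above both E13.5 values in 3242 genes (18.5%) and below both in 3121 genes (17.8%), and the median log2 change was -0.004.

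The number of calls depended on the libraries used. Without control 195-6 it rose to 1223 higher and 835 lower of 17246 genes tested. These included 449 of the 452 and 304 of the 305. Without control 260-2, which leaves only libraries of low Y-linked counts, it was 198 and 63. It was 52 and 22 without control 260-3, 90 and 30 without 195-2, and 154 and 77 without 303-3. Within the E14.5 litters, litter 195 alone against litter 260 gave these same 154 and 77 calls, and control 303-3 alone against litter 260 gave 283 and 147. Of the higher genes 443 were protein coding and 7 were pseudogenes, and of the lower genes 295 and 10.

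**Figure D2:**
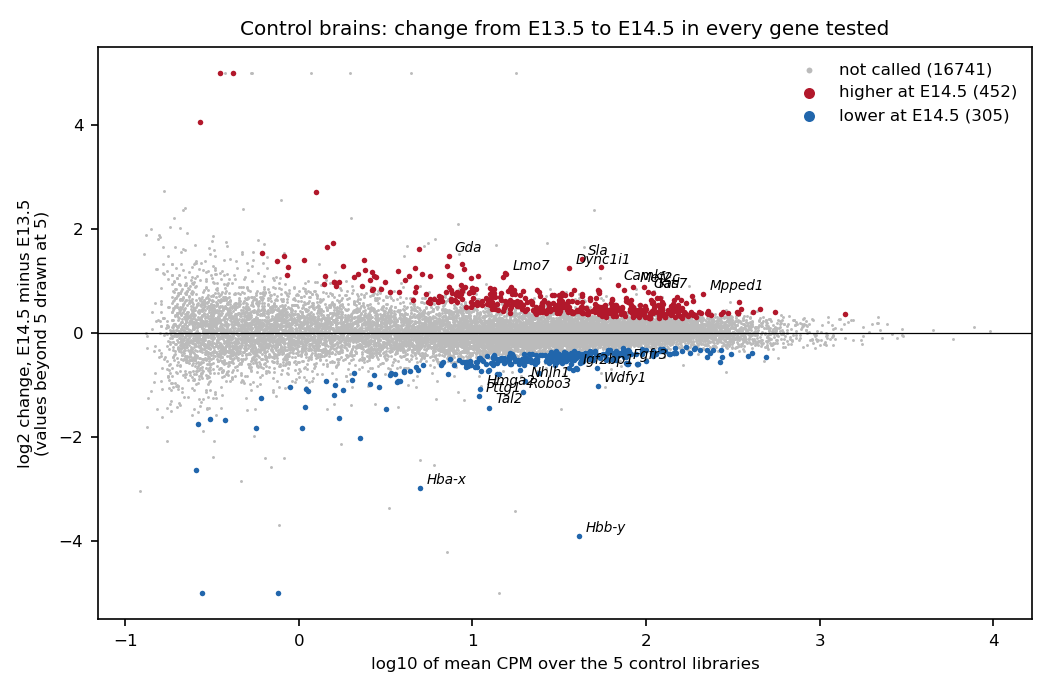
Log2 change from E13.5 to E14.5 (vertical axis) against the log10 of the mean CPM over the 5 libraries (horizontal axis) for all 17498 genes tested. Red points are the 452 higher genes, blue points the 305 lower genes and grey points the others; named genes are among those of smallest p in each direction, with Hbb-y and Hba-x the lowest of them.

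Several of the leading higher genes are known from forebrain neurons. Sla, which encodes an adaptor protein related to Src kinases, measured 21.2 and 21.1 CPM and then 59.8, 59.2 and 51.5 CPM, a log2 change of 1.43 ± 0.098 (adjusted p = 8.6e-06). The ± after each log2 change is a standard error derived from the F statistic of edgeR's test, not an SD between embryos. Dync1i1, a cargo-binding subunit of the dynein motor, measured 19.2 and 20.2 CPM and then 52.0, 46.2 and 43.2 CPM, a log2 change of 1.25 ± 0.10 (adjusted p = 5.31e-05). Mef2c, a transcription factor of cortical neurons, measured 57.3 and 54.3 CPM and then 117, 99.7 and 94.3 CPM, a log2 change of 0.89 ± 0.096 (adjusted p = 0.000431). In each of these genes all E14.5 brains exceeded all E13.5 brains, which the rule that named them required. Gda, a guanine deaminase, went from 3.79 and 3.27 CPM to 10.5, 9.68 and 9.16 CPM, a log2 change of 1.47 ± 0.15 (adjusted p = 0.000289). The others named by the same rule included Camkv, a kinase-like vesicle protein (log2 change 0.93), Lmo7 (1.13), Kitl, the ligand of the Kit receptor (0.78), Gas7 (0.79) and Mpped1 (0.74), with adjusted p between 6.19e-05 and 0.000461.

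The leading lower genes were more mixed. They included the embryonic globins Hba-x and Hbb-y, described further on. Wdfy1, an endosomal adaptor, measured 77.1 and 74.4 CPM and then 39.9, 37.0 and 35.6 CPM, a log2 change of -1.01 ± 0.082 (adjusted p = 4.81e-05). Pttg1, the securin that holds sister chromatids together until anaphase, measured 18.1 and 15 CPM and then 6.72, 7.39 and 7.33 CPM, a log2 change of -1.21 ± 0.12 (adjusted p = 0.000306). Both genes were lower in every E14.5 brain, as that rule required, and those 3 brains were alike. Nhlh1, a basic helix-loop-helix factor of newborn neurons, measured 28.5 and 27.2 CPM and then 14.2, 16.4 and 13.7 CPM, a log2 change of -0.92 ± 0.11 (adjusted p = 0.00079). Tal2, a related factor needed for GABA neurons of the midbrain, measured 21.0 and 19.4 CPM and then 6.79, 9.46 and 6.13 CPM, a log2 change of -1.43 ± 0.16 (adjusted p = 0.0011). Control 195-6 was the highest of the 3 E14.5 brains in both genes and remained below the E13.5 brains.

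Genes of cell division fell together. In a list of 32 mitosis genes, 21 passed the test as lower and none as higher, against 1.74% lower over all genes. The median log2 change of the list was -0.43, and none of its members had a positive change, whereas 8604 of the 17498 genes did. In a list of 30 DNA replication genes, 16 were lower and none higher, with a median of -0.41 and again no positive member. In tissue samples of this kind, fewer cells of a type and less RNA per cell cannot be told apart.

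Ccnb2, a B-type cyclin that drives entry into mitosis, measured 28.7 and 29.3 CPM at E13.5 and 17.9, 22.1 and 19.1 CPM at E14.5, a log2 change of -0.56 ± 0.11 (adjusted p = 0.0144). Cdca8, which encodes the borealin subunit of the chromosomal passenger complex, measured 40.7 and 43.6 CPM and then 26.5, 33.3 and 27.8 CPM, a log2 change of -0.53 ± 0.11 (adjusted p = 0.0168). Top2a, the topoisomerase that untangles sister chromatids, measured 275 and 261 CPM and then 174, 217 and 195 CPM, a log2 change of -0.46 ± 0.093 (adjusted p = 0.0173). Incenp, another passenger protein, had a log2 change of -0.44 ± 0.087 (adjusted p = 0.0166). In each of these 4 genes the groups did not overlap, and control 195-6 was the E14.5 brain closest to E13.5. Mki67, the widely used proliferation marker, measured 251 and 193 CPM and then 166, 192 and 189 CPM, and did not pass the test (log2 change -0.28, adjusted p = 0.191).

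Among replication genes, Mcm3, a subunit of the replicative helicase, measured 65.4 and 69.2 CPM at E13.5 and 39.2, 49.1 and 39 CPM at E14.5, a log2 change of -0.67 ± 0.10 (adjusted p = 0.00532). Mcm2, of the same helicase, measured 83.2 and 80.9 CPM and then 53.9, 64.6 and 52.6 CPM, a log2 change of -0.52 ± 0.093 (adjusted p = 0.0102). Pcna, the sliding clamp of DNA polymerases, measured 169 and 170 CPM and then 126, 140 and 124 CPM, a log2 change of -0.38 ± 0.076 (adjusted p = 0.0168). Lig1, the ligase that joins Okazaki fragments, fell with a log2 change of -0.41 ± 0.079 (adjusted p = 0.0141). Ccnd1, the D-type cyclin that couples growth signals to entry into the cycle, measured 101 and 94.7 CPM and then 59.2, 70.4 and 65.1 CPM, a log2 change of -0.59 ± 0.086 (adjusted p = 0.00283). It was the only one of 14 genes of cell cycle exit and G1 control to pass the test, against 4.33% over all genes.

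The number of division genes called rose without control 195-6 and fell without each of the others. Without control 195-6, 27 of the 32 mitosis genes and 28 of the 30 replication genes were lower, against 835 of 17246 genes tested. Without 260-2 the counts were 0 and 3, without 260-3 they were 0 and 0, without 195-2 they were 0 and 1, and without 303-3 they were 1 and 3. The medians kept their sign, between -0.36 and -0.51 for mitosis and between -0.37 and -0.50 for replication. Control 195-6 was the closest of the E14.5 brains to the E13.5 mean in 26 of the 32 mitosis genes and 28 of the 30 replication genes, against 52.0% of all genes. All 3 E14.5 brains lay below both E13.5 brains in 30 of the 32 and 27 of the 30, against 17.8% of all genes.

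The promoters of the mitosis genes were searched for short sequences already known from cell cycle promoters. The list itself was not chosen on them. RefSeq promoters on GRCm38.p6, running from 250 bases before the start of transcription to 50 bases after it, were found for 26 of the 32 mitosis genes and 24 of the 30 replication genes. They were searched on both strands for CCAAT (reverse complement ATTGG), the box bound by the factor NF-Y, and for TTTGAA, with TTCAAA as its reverse complement, the core of the cell cycle homology region. CCAAT was present in 20 of 26 mitosis promoters (76.9%) and 15 of 24 replication promoters (62.5%), against 37.9% of the promoters of 27025 genes. TTTGAA was present in 20 of 26 mitosis promoters (76.9%) and in 4 of 24 replication promoters (16.7%), against 18.1% of all. Both were present in 17 mitosis promoters (65.4%), 3 replication promoters (12.5%) and 7.12% of all promoters. A match is a description of the letters and not evidence of binding.

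The promoters of Ccnb2 (chr9:70421505-70421804, minus strand) and Cdca8 (chr4:124936868-124937167, minus strand), which are among the mitosis genes of smallest p, show both sequences close to the start of transcription. They are written 5′ to 3′ in the direction of the gene, with CCAAT or ATTGG and TTTGAA in capitals. Incenp, whose p lay between those of Ccnb2 and Cdca8, had no entry among the RefSeq promoters and is not shown.
Ccnb2: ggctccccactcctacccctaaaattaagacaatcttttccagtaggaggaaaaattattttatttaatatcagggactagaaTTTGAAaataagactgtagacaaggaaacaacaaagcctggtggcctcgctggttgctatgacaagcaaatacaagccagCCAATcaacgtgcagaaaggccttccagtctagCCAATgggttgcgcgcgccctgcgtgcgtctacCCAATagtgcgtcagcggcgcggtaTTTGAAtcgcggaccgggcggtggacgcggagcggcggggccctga
Cdca8: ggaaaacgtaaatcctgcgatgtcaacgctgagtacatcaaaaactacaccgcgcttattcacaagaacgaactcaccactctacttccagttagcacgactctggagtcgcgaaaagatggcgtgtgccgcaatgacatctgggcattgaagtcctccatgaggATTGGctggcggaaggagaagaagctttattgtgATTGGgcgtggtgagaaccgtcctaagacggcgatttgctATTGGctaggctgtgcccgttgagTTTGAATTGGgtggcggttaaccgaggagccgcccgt
In Ccnb2, 3 CCAAT boxes begin 87, 54 and 21 bases before the start, and TTTGAA begins 167 bases before and again 4 bases after it. In Cdca8, 3 ATTGG boxes begin 85, 51 and 11 bases before the start. TTTGAA begins 13 bases after the start of Cdca8, and its last base is the first base of another ATTGG.

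**Figure D3:**
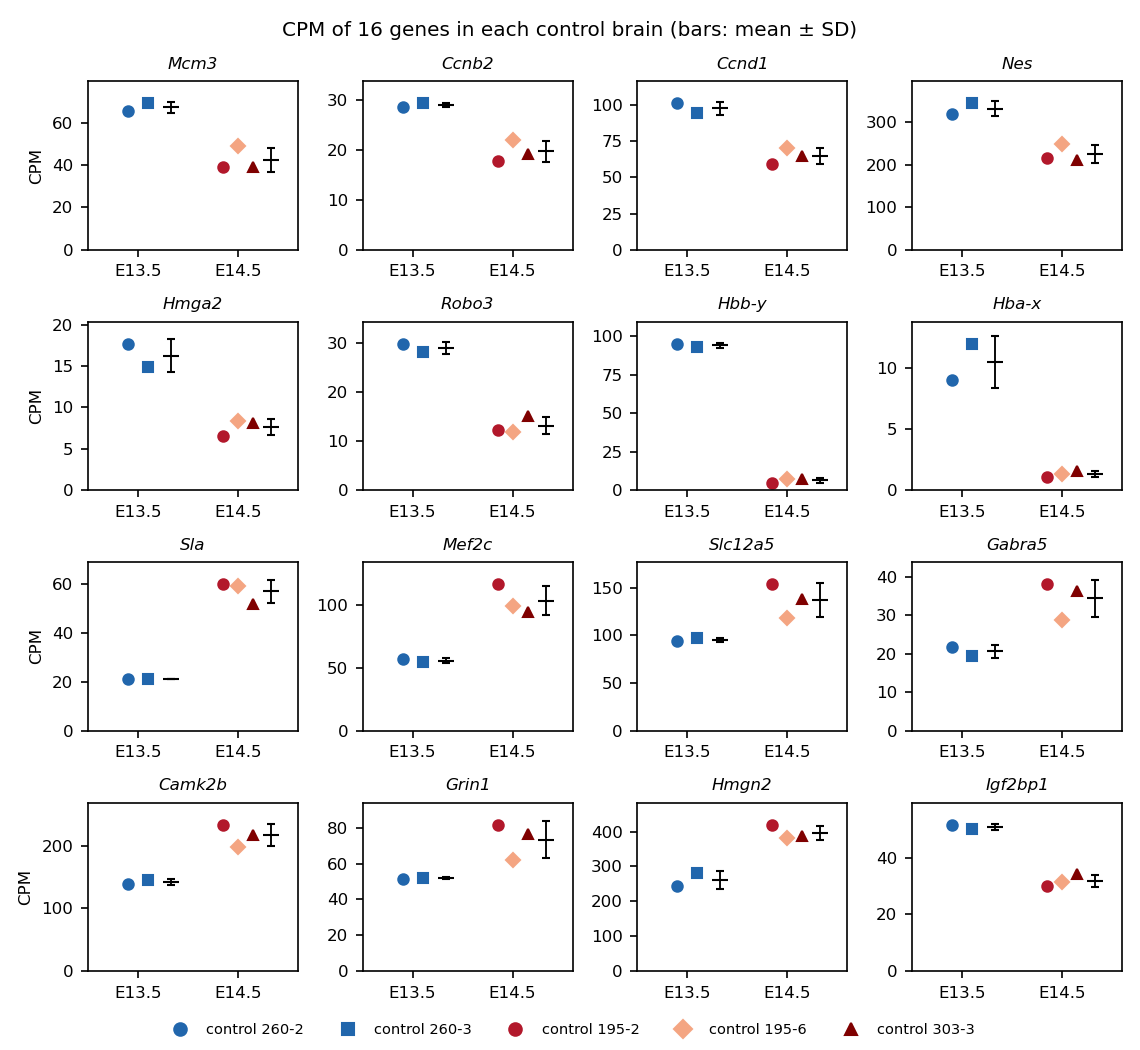
CPM of 16 genes in each control library (vertical axes, from 0), with E13.5 on the left and E14.5 on the right of each panel, 1 symbol per library, and black bars for the mean ± SD. The groups do not overlap in any panel, and control 195-6 (diamond) lies nearest to E13.5 in Mcm3, Ccnb2, Ccnd1, Slc12a5, Gabra5 and Grin1 but not in Robo3 or Mef2c.

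Genes of neural progenitors fell in part. Of 25 genes of radial glia and neural stem cells, 8 were lower and 2 higher, with a median log2 change of -0.24, against 1.74% lower and 2.58% higher over all genes. Nes, the intermediate filament of neural progenitors, measured 319 and 344 CPM and then 216, 249 and 211 CPM, a log2 change of -0.56 ± 0.090 (adjusted p = 0.00633). Fgfr3, a fibroblast growth factor receptor of ventricular progenitors, measured 99.4 and 93.3 CPM and then 61.0, 64.9 and 67.3 CPM, a log2 change of -0.58 ± 0.078 (adjusted p = 0.00182). Prom1, a membrane protein of apical protrusions, fell with a log2 change of -0.50 ± 0.082 (adjusted p = 0.00684). Pax6, which patterns the cortex and keeps its progenitors, measured 76.3 and 77.0 CPM and then 56.3, 63.6 and 61.1 CPM, a log2 change of -0.34 ± 0.080 (adjusted p = 0.0301). Sox2 overlapped between the groups, at 125 and 120 CPM and then 97.4, 120 and 108 CPM (log2 change -0.17, adjusted p = 0.32).

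The radial glia list held calls in both directions. Its 2 higher members, named after their values were seen, were Tnc, an extracellular matrix protein of radial glia, and Ptprz1, a receptor phosphatase that binds it. Tnc measured 128 and 114 CPM and then 194, 147 and 185 CPM (log2 change 0.54, adjusted p = 0.0315), and Ptprz1 311 and 252 CPM and then 382, 353 and 375 CPM (0.40, adjusted p = 0.0378). Without control 195-6 the list had 9 lower and 2 higher genes, against 835 lower and 1223 higher of 17246 genes tested. Without each of the other libraries it had 3 to 6 lower genes, and its higher genes numbered 1 without 260-2 and 0 without 260-3, 195-2 or 303-3. Both higher calls were also lost with a non-robust dispersion.

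Proneural genes and Notch ligands, which set the pace at which progenitors turn into neurons, made up most of the 6 lower genes in a list of 18 for intermediate progenitors. Over all genes 1.74% were lower. Dll3, a Notch ligand that acts within the cell, measured 25.3 and 23.8 CPM and then 13.1, 16.7 and 14.9 CPM, a log2 change of -0.72 ± 0.12 (adjusted p = 0.00633). Dll1, the ligand displayed by newborn neurons, measured 60.1 and 61.6 CPM and then 37.5, 45.9 and 43.5 CPM, a log2 change of -0.52 ± 0.094 (adjusted p = 0.0104). Neurog2, the proneural factor of cortical progenitors, measured 96.9 and 99.9 CPM and then 55.0, 76.3 and 63.4 CPM, a log2 change of -0.60 ± 0.12 (adjusted p = 0.0217). Neurog1 was lower as well (-0.93 ± 0.20, adjusted p = 0.0204). All these genes were lower in every E14.5 brain.

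Eomes, the defining gene of intermediate progenitors, measured 105 and 99.2 CPM and then 75.8, 101 and 82.3 CPM, so the groups overlapped through control 195-6 (log2 change -0.24, adjusted p = 0.26). Neurod2, which is switched on as cortical neurons differentiate, was the list's only higher member. It measured 151 and 161 CPM and then 199, 216 and 184 CPM (0.36 ± 0.085, adjusted p = 0.0326). When 195-6 was left out, 835 of all 17246 genes tested were lower. Leaving out control 195-6 gave 9 lower genes in this list, and leaving out 260-2, 260-3, 195-2 or 303-3 gave 0, 0, 1 and 3.

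Genes that change with developmental time moved in both directions. Hmga2, a chromatin protein of young stem cells that is repressed by the let-7 microRNAs, measured 17.7 and 14.8 CPM and then 6.54, 8.32 and 8.16 CPM, a log2 change of -1.08 ± 0.14 (adjusted p = 0.0011). Igf2bp1, an RNA-binding protein under the same control, measured 51.8 and 50.2 CPM and then 30.0, 31.5 and 34.3 CPM, a log2 change of -0.68 ± 0.090 (adjusted p = 0.0018). Hmgn2, a nucleosome-binding protein, measured 242 and 280 CPM and then 420, 382 and 388 CPM, a log2 change of 0.60 ± 0.091 (adjusted p = 0.00385). Hmga2, Igf2bp1 and Hmgn2 passed under every alternative setting tried, including without each library. Nfix, a nuclear factor that promotes the maturation of radial glia, measured 275 and 300 CPM and then 382, 374 and 370 CPM (0.39 ± 0.082, adjusted p = 0.021).

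The list held 21 genes, of which 3 were lower and 2 higher, against 1.74% and 2.58% over all genes, with a median of -0.23. Lin28b, which blocks let-7 processing, measured 23.2 and 23.8 CPM and then 21.6, 19.5 and 19 CPM and did not pass (log2 change -0.23, adjusted p = 0.235). Nfia and Nfib, relatives of Nfix that start the gliogenic programme, had log2 changes of -0.13 and 0.12 (adjusted p = 0.426 and 0.458).

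Among neuronal genes, 5 of 15 deep-layer, 3 of 15 upper-layer and 2 of 30 pan-neuronal genes passed the test as higher. The upper-layer and pan-neuronal medians were close, at 0.15 and 0.17. Of 15 deep-layer genes, 5 were higher and none lower, with a median log2 change of 0.29, against 2.58% higher over all genes. Hs3st4, a heparan sulfotransferase of layer 6 neurons, measured 37.3 and 38.1 CPM and then 64.3, 60.1 and 56.7 CPM, a log2 change of 0.68 ± 0.086 (adjusted p = 0.00114). Ldb2, an adaptor of LIM-domain factors, measured 31.8 and 29.7 CPM and then 47.9, 45.6 and 46.3 CPM, a log2 change of 0.60 ± 0.088 (adjusted p = 0.00302). Ppp1r1b, the phosphatase inhibitor DARPP-32, and Nfe2l3 also rose (0.60 and 0.47, adjusted p = 0.0133 and 0.0288). Bcl11b, the factor that specifies subcerebral projection neurons, measured 194 and 196 CPM and then 219, 215 and 218 CPM. The groups did not overlap in Bcl11b, but the change of 0.16 did not pass (adjusted p = 0.267).

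Of 15 upper-layer genes, 3 were higher (2.58% over all genes), among them Mef2c and Inhba. Inhba, a subunit of activin, measured 2.29 and 1.92 CPM and then 5.63, 4.53 and 4.25 CPM, a log2 change of 1.19 ± 0.19 (adjusted p = 0.00654). The remaining 12 had smaller changes and the list median was 0.15, or 0.02 with an offset for transcript length and GC content. Bhlhe22, a factor of cortical and other projection neurons, measured 54.8 and 57.7 CPM and then 91.7, 93.7 and 84.7 CPM, a log2 change of 0.68 ± 0.080 (adjusted p = 0.000801). Without each library in turn, the higher genes numbered 2, 1, 2, 7 and 3 of the deep-layer list and 3, 2, 3, 3 and 3 of the upper-layer list, in the library order given above, with 1 lower upper-layer gene without 195-6.

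Of 30 pan-neuronal genes, 2 passed, both higher, with a median of 0.17, against 2.58% higher over all genes. They were Mapt, the microtubule protein tau (0.37 ± 0.094, adjusted p = 0.0461), and Syt1, the calcium sensor of vesicle fusion (0.36 ± 0.090, adjusted p = 0.0377). Both calls were lost with upper quartile scaling and without each library except 195-6, whose omission gave 9 higher genes. Among all genes that omission gave 1223 of 17246 higher. With the length and GC offset, 7 of the 30 pan-neuronal genes were higher, against 699 of 17498 genes, and their median was 0.165. Tubb3 measured 1836 and 2008 CPM and then 1910, 2088 and 1828 CPM, a log2 change of 0.02 (adjusted p = 0.954).

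Genes of GABA neurons and of other transmitter systems had few calls. The counts were 1 of 25 and 0 of 23, against 4.33% of all genes, so the first was near that share. Of 25 genes of the ganglionic eminences and GABA neurons, Calb2, the calcium buffer calretinin, was the only one to pass, at 25.7 and 29.8 CPM and then 38.7, 42.0 and 38.2 CPM (0.51 ± 0.099, adjusted p = 0.0144). Gad1, the GABA-synthesising enzyme, measured 120 and 119 CPM and then 143, 140 and 149 CPM. It did not overlap between the groups and missed the threshold (0.27 ± 0.072, adjusted p = 0.0564). Slc17a6, a vesicular glutamate transporter, measured 136 and 125 CPM and then 143, 122 and 142 CPM (0.06, adjusted p = 0.769). None of 23 genes of monoamine and cholinergic neurons passed in edgeR's test, where the smallest adjusted p belonged to the dopamine transporter Slc6a3 (0.73, adjusted p = 0.057) and to Gata2, a factor of midbrain GABA neurons (-0.44, adjusted p = 0.058). An unadjusted p under 0.05 in edgeR's test was met by 7 of the 23, against 3355 of 17498 genes. DESeq2 called 3 of the 23, and over all 17498 genes it called 773 higher and 472 lower. In the Cajal-Retzius list of 11 genes, Lhx5 and Nhlh2 fell (-0.53 and -0.48, adjusted p = 0.00909 and 0.00733) and Calb2 rose. The shares over all genes were 1.74% lower and 2.58% higher.

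Some members of each list of synapse and excitability genes rose, and most members did not pass the test. Receptors for GABA and glycine with the chloride transporters had the highest median of the 41 lists, 0.48, with 9 of 20 members higher and none lower. The glutamate receptors had a median of 0.41, with 6 of 25 higher. The postsynaptic scaffold and adhesion list had 7 of 31 higher, the voltage-gated ion channels 7 of 39 and the synaptic vesicle genes 7 of 34, with medians of 0.30, 0.29 and 0.29. No member of these 5 lists was lower. The changes were positive in 19 of 20, 24 of 25, 30 of 31, 38 of 39 and 32 of 34 members. Over all genes 2.58% were higher, and 8604 of 17498 had a positive change.

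Slc12a5, the chloride exporter KCC2 that makes GABA inhibitory in mature neurons, measured 93.8 and 96.7 CPM and then 154, 118 and 138 CPM. It averaged 95.3 ± 2.03 CPM at E13.5 (SD, n = 2), 137 ± 17.9 CPM at E14.5 (SD, n = 3), with a log2 change of 0.52 ± 0.10 (adjusted p = 0.0166). Gabra5, a GABA-A receptor subunit, measured 21.8 and 19.4 CPM and then 38, 28.8 and 36.2 CPM, a log2 change of 0.74 ± 0.12 (adjusted p = 0.00864). Gabrg1, another subunit, measured 9.84 and 8.71 CPM and then 18.6, 13.6 and 14.8 CPM, a log2 change of 0.76 ± 0.14 (adjusted p = 0.0138). Gabra3 rose by less (0.42 ± 0.095, adjusted p = 0.0254). In Slc12a5, Gabra5 and Gabrg1 all E14.5 brains lay above both E13.5 brains, with control 195-6 the lowest of them. Slc12a2, the importer NKCC1 that opposes KCC2, was chosen after its values were seen, and measured 73.6 and 64.7 CPM and then 69.4, 68.4 and 72.6 CPM (log2 change 0.02, adjusted p = 0.924).

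Among glutamate receptors, Grin1, the obligatory subunit of NMDA receptors, measured 51.6 and 52.2 CPM and then 81.8, 61.8 and 76.5 CPM, a log2 change of 0.50 ± 0.11 (adjusted p = 0.025). Gria1, an AMPA receptor subunit, measured 109 and 95.8 CPM and then 151, 130 and 134 CPM, a log2 change of 0.43 ± 0.088 (adjusted p = 0.0173). Grik3, a kainate receptor, rose with a log2 change of 0.41 (adjusted p = 0.0144). In Grin1 the E13.5 brains were nearly equal, while the E14.5 brains were spread out with control 195-6 the lowest.

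On the postsynaptic side, Camk2b, a subunit of the calcium-dependent kinase CaMKII, measured 138 and 145 CPM and then 233, 198 and 217 CPM, a log2 change of 0.61 ± 0.086 (adjusted p = 0.00243). Camk2b passed in every alternative setting. Dlg2, the scaffold PSD-93, measured 86.7 and 81.2 CPM and then 137, 115 and 129 CPM, a log2 change of 0.60 ± 0.087 (adjusted p = 0.00284). Dlgap3, which links such scaffolds to Shank proteins, and Lrrtm1, an adhesion protein, rose with log2 changes of 0.62 and 0.49 (adjusted p = 0.00573 and 0.021). On the presynaptic side, Rph3a and Doc2b, both C2-domain proteins that bind calcium and the fusion machinery, rose with log2 changes of 0.55 and 0.59 (both adjusted p = 0.00964). Doc2b measured 18.6 and 20.2 CPM and then 31.3, 27.6 and 28.4 CPM. Rims1 and Unc13a, which prepare vesicles for release at the active zone, rose by 0.53 and 0.34 on the log2 scale (adjusted p = 0.0256 and 0.0239). With the length and GC offset Unc13a had a log2 change of 0.14 and was not called (adjusted p = 0.196).

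Among ion channels, Kcnq5 and Kcnq3, potassium channel subunits of the M-current, rose with log2 changes of 0.81 ± 0.16 and 0.63 ± 0.11 (adjusted p = 0.0151 and 0.016). Kcnq5 measured 5.95 and 6.03 CPM and then 12.8, 9.21 and 9.57 CPM. Cacna1e, an R-type calcium channel, measured 116 and 102 CPM and then 185, 144 and 180 CPM, a log2 change of 0.64 ± 0.11 (adjusted p = 0.0124). Cacna1i, a T-type calcium channel, rose by 0.62 ± 0.11 on the log2 scale (adjusted p = 0.0118).

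Control 195-6 stood between the stages in these lists. It was the closest E14.5 brain to the E13.5 mean in 37 of 39 ion channel, 28 of 34 vesicle and 20 of 25 glutamate receptor genes. It was also the closest in 23 of 31 postsynaptic and 13 of 20 GABA and glycine genes, against 52% of all genes. Its median log2 difference from the E13.5 mean was 0.12 over the ion channels, against 0.40 in 195-2 and 0.37 in 303-3. Without it, 1223 of all 17246 genes tested were higher. In that fit the higher genes numbered 11 of the GABA and glycine list, 16 of the glutamate receptors and 15 of the postsynaptic genes. They also numbered 27 of the ion channels and 22 of the vesicle genes. Leaving out control 260-2 gave 3, 3, 2, 4 and 0 in the same order of lists, leaving out 260-3 gave 0, 0, 1, 0 and 0, leaving out 195-2 gave 1, 0, 3, 1 and 0, and leaving out 303-3 gave 2, 1, 4, 4 and 2. The list medians stayed positive in each of these fits, between 0.22 and 0.54. The part of its low Hox and hindbrain levels in this position was not tested.

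**Figure D4:**
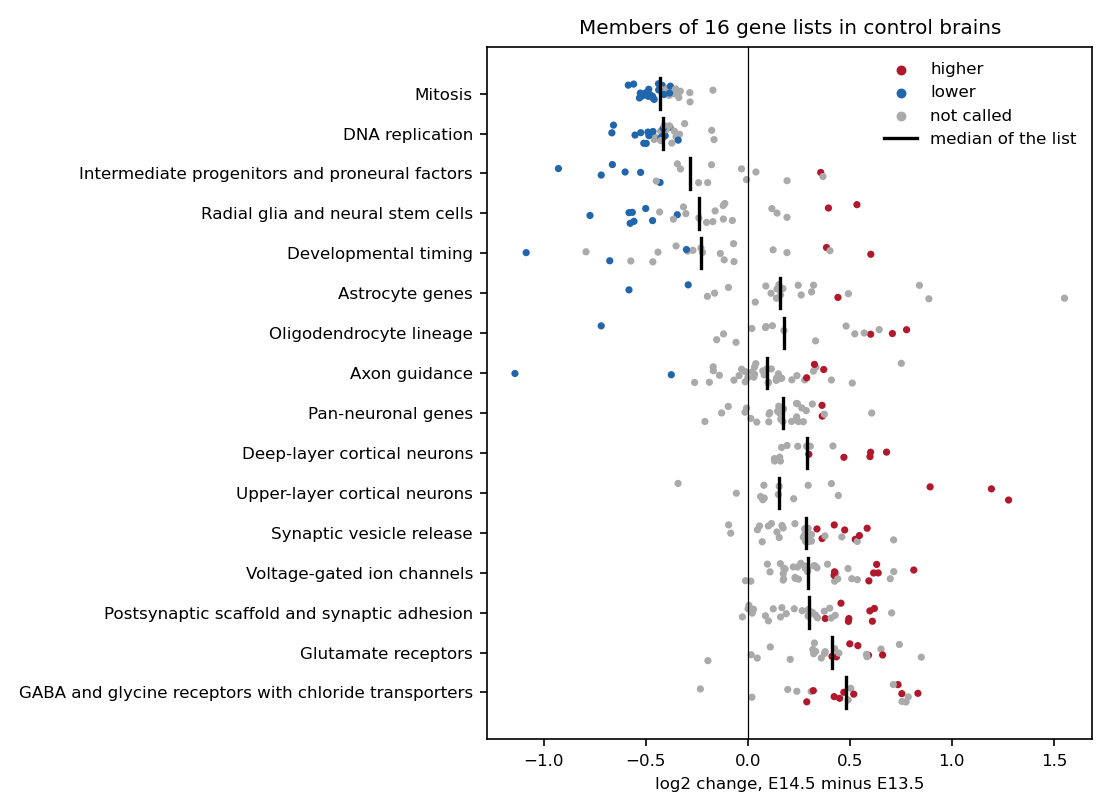
Log2 change from E13.5 to E14.5 of every tested member of 16 gene lists (horizontal axis), 1 point per gene, red where higher and blue where lower at an adjusted p under 0.05, grey otherwise, with a black bar at the list median. The mitosis and DNA replication members all lie left of 0, and the 5 lists of synapse and excitability genes at the bottom lie almost wholly to the right.

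**Figure D5:**
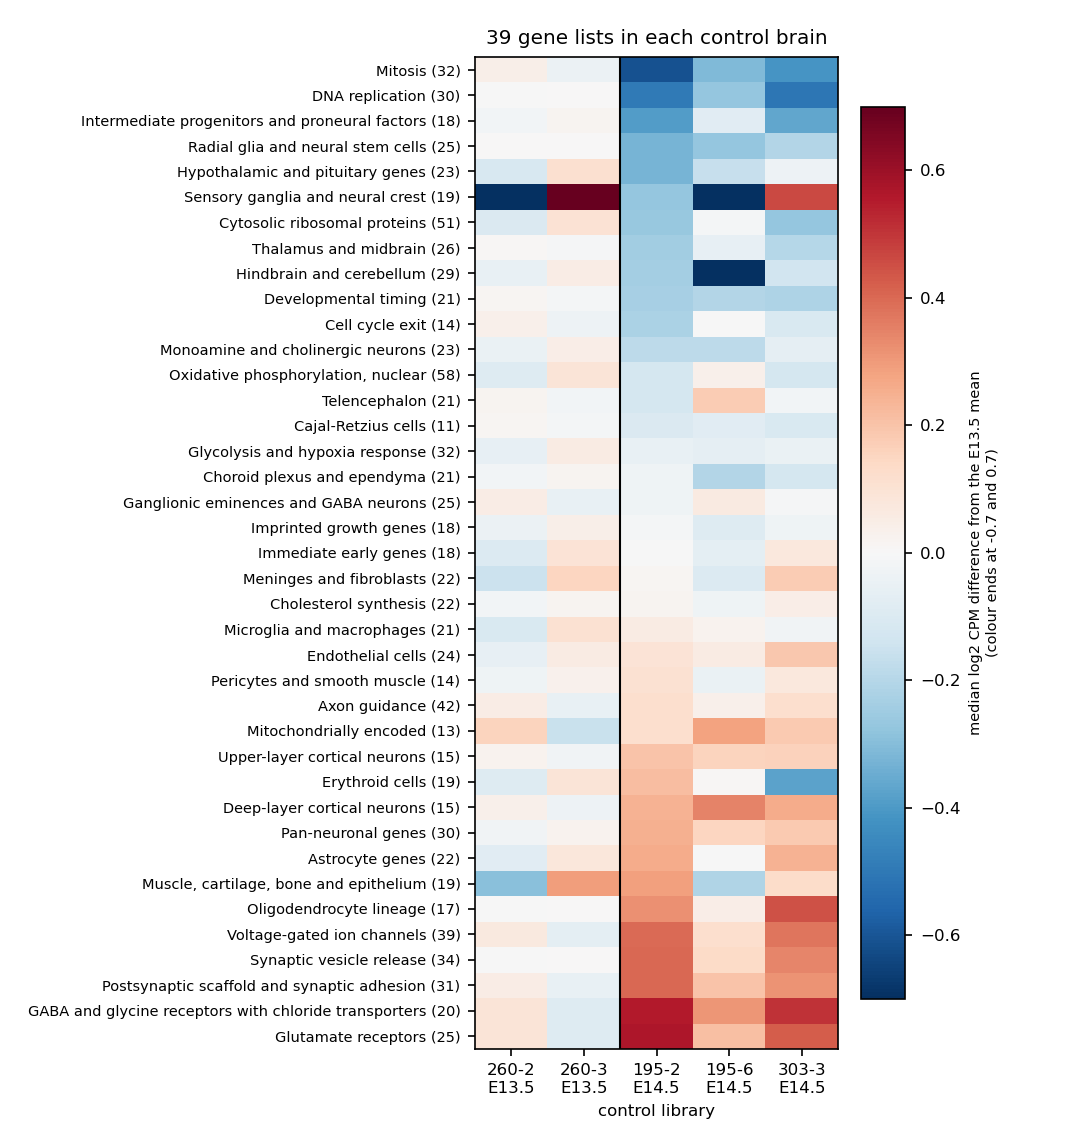
Median over the members of 39 gene lists of the log2 CPM difference of each library (columns) from the mean of the E13.5 libraries, as colour, with the number of tested members in brackets. Control 195-6 is paler than 195-2 and 303-3 in the cell cycle lists at the top and the synapse lists at the bottom. It is darker for the hindbrain list and the sensory ganglia list, where its medians were -0.72 and -1.15.

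Axon guidance genes moved one by one. Robo3, the receptor that lets commissural axons of the hindbrain and spinal cord cross the midline, fell the most of the 42 listed. It measured 29.9 and 28.2 CPM and then 12.3, 12 and 15.2 CPM, a log2 change of -1.14 ± 0.12 (adjusted p = 0.000313). Summed Hox CPM was 304 and 310 at E13.5 and 213, 4.28 and 248 at E14.5. The part of these levels in the fall of Robo3 was not tested. Efnb1, an ephrin of ventricular progenitors, fell by a log2 change of -0.37 ± 0.082 (adjusted p = 0.024). Sema3c and Plxnc1, a semaphorin and a semaphorin receptor, and Nrp1, a further such receptor, made up the 3 higher genes, with log2 changes of 0.37, 0.29 and 0.33 (adjusted p = 0.0316, 0.0448 and 0.0491). Over all genes 2.58% were higher and 1.74% lower. Without 195-2, 195-6 and 303-3 the list had 0, 4 and 0 higher and 1, 2 and 1 lower genes. When 195-6 was left out, 1223 of all 17246 genes tested were higher and 835 lower. The list median was 0.10 with all libraries, 0.14 without 260-2 and 0.03 without 260-3.

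Some glial genes changed. Olig1, a factor of the oligodendrocyte lineage, measured 21.6 and 25.5 CPM and then 45.2, 33.1 and 37.2 CPM, a log2 change of 0.71 ± 0.13 (adjusted p = 0.0162). Gpr17 and Lhfpl3, genes of oligodendrocyte precursors, rose with log2 changes of 0.78 and 0.60 (adjusted p = 0.0312 and 0.0391). Olig2, the partner of Olig1, measured 20.3 and 21.5 CPM and then 20.4, 20.2 and 23.0 CPM (log2 change 0.02, adjusted p = 0.944). The list of 17 had 3 higher genes and 1 lower, Dll3, against 2.58% and 1.74% over all genes. Its higher genes numbered 0, 0, 0, 7 and 1 without 260-2, 260-3, 195-2, 195-6 and 303-3. The astrocyte list had 1 higher and 2 lower genes, and 6 and 2 without 195-6. In the fit without 195-6, 1223 of all 17246 genes tested were higher and 835 lower. Among 22 astrocyte genes Clu, a secreted chaperone, rose (0.44, adjusted p = 0.0421), and Fgfr3 and Ttyh1 fell (-0.58 and -0.29). Aldh1l1, the usual astrocyte marker, measured 44 to 56.7 CPM with overlapping groups (0.15, adjusted p = 0.428).

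Among the named genes that passed the test, the largest falls were in the embryonic globins. Hbb-y, the embryonic beta-type globin (chr7:103851749-103853216, minus strand, GRCm38), measured 94.9 and 92.8 CPM at E13.5 and 4.46, 7.37 and 7.09 CPM at E14.5, a log2 change of -3.90 ± 0.20 (adjusted p = 0.000431). Hba-x, the embryonic alpha-type globin (chr11:32276400-32278116, plus strand), measured 9.05 and 12 CPM and then 1.07, 1.33 and 1.6 CPM, a log2 change of -2.99 ± 0.20 (adjusted p = 7.59e-06). Hbb-bh1, another embryonic globin, was rare, with 17 and 27 counts at E13.5 and 4, 3 and 4 counts at E14.5 (adjusted p = 0.0098). The groups were far apart in Hbb-y and Hba-x, and the calls stood without each library.

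No adult globin passed the test. Hbb-bt, an adult beta globin, measured 160 and 207 CPM and then 221, 189 and 141 CPM (log2 change 0.00, adjusted p = 0.997), and Hbb-bs, Hba-a1 and Hba-a2 had adjusted p between 0.607 and 0.974. The share of embryonic genes among beta-type globin counts was 14.3% (exact binomial 95% interval 13.9% to 14.7%) and 11.2% (10.9% to 11.5%) at E13.5. At E14.5 it was 0.513% (0.447% to 0.586%), 0.976% (0.875% to 1.09%) and 1.23% (1.09% to 1.37%). Hba-x made up 1.59% and 1.57% of alpha-type counts at E13.5 and 0.137%, 0.208% and 0.324% at E14.5. These intervals cover counting error only, and near-identical globin copies share reads, so the split among adult copies is uncertain. Only these 3 of the 19 tested erythroid genes passed, against 4.33% over all genes.

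A few genes of blood vessels passed the test as higher. Slco1c1, a thyroid hormone transporter of brain endothelium, measured 13.7 and 13.6 CPM and then 21.1, 20.4 and 20.0 CPM, a log2 change of 0.59 ± 0.10 (adjusted p = 0.00915). Cldn5, the tight junction protein of the blood-brain barrier, measured 43.4 and 52.4 CPM and then 64.9, 64.6 and 58.3 CPM, a log2 change of 0.39 ± 0.095 (adjusted p = 0.0378). Rgs5, a pericyte marker, measured 80.1 and 69.6 CPM and then 97.3, 99.1 and 98.7 CPM (0.39 ± 0.081, adjusted p = 0.0186). These were 2 of 24 endothelial genes and 1 of 14 pericyte genes, against 2.58% higher over all genes. The list medians were 0.12 and 0.01. When 195-6 was left out, 1223 of all 17246 genes tested were higher. The endothelial count was 5 without control 195-6 and 0 or 1 without each of the others.

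Other non-neural lists varied widely between embryos of 1 stage. The summed CPM of 22 genes of meninges and fibroblasts was 891 and 1111 at E13.5 and 1045, 840 and 1140 at E14.5. Col1a1, their main collagen, measured 88.4 and 131 CPM and then 105, 77.6 and 124 CPM (log2 change -0.11, adjusted p = 0.894). Crabp2, a retinoic acid binding protein, and Lum, a proteoglycan, fell (-0.71 and -0.51) and Ogn, another proteoglycan, rose (0.56). Genes of sensory ganglia and neural crest summed to 154 and 237 CPM and then 148, 106 and 194 CPM. Their median log2 difference from the E13.5 mean was -0.75 in control 260-2 and 0.75 in control 260-3, which mirror each other by construction. It was -0.27 in 195-2, -1.15 in 195-6 and 0.46 in 303-3. Col2a1, a cartilage collagen also made by embryonic neuroepithelium, fell from 113 and 113 CPM to 68.7, 81.8 and 72.6 CPM (-0.60 ± 0.084, adjusted p = 0.00234). No microglial gene of 21 passed in edgeR's test or in DESeq2. In edgeR's test 1 had an unadjusted p under 0.05, against 3355 of 17498 genes. In the choroid plexus list, Ttr measured 430 and 567 CPM and then 575, 511 and 515 CPM (0.10, adjusted p = 0.693). Of its 21 genes, Prlr, the prolactin receptor, was higher (0.83, adjusted p = 0.0399), against 2.58% over all genes. Rspo1 and Wnt8b, which encode secreted proteins of Wnt signalling, were lower (-0.77 and -0.73, adjusted p = 0.0434 and 0.0425), against 1.74%. None of the 3 passed without each library except 195-6.

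Genes of brain regions were read beside control 195-6. In the hindbrain and cerebellum list 3 of 29 genes were lower, among them Lhx5 and Pax3, against 1.74% over all genes. The median log2 change of the list was -0.45, or -0.21 without control 195-6. Pax3, a factor of dorsal progenitors, measured 12.2 and 12.3 CPM and then 7.98, 8.86 and 7.35 CPM (-0.60 ± 0.12, adjusted p = 0.0192). Hoxb3 measured 35.8 and 38.4 CPM and then 28.9, 0.688 and 33.4 CPM (log2 change -0.82, adjusted p = 0.83). Of the 25 Hox genes tested, only Hoxd8 passed, at under 1 CPM in every library (adjusted p = 0.0493). The median log2 change of the Hox genes was -0.91. Without control 195-6, 6 of 24 Hox genes were lower, against 835 of 17246 genes tested, and the Hox median was -0.40. En1, a midbrain and anterior hindbrain factor that lies outside the Hox domain, measured 10.3 and 11.2 CPM and then 10.2, 11 and 11.4 CPM (0.01, adjusted p = 0.967). The Hox and hindbrain medians thus rested in part on 1 library.

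In the telencephalon list 4 of 21 genes were higher and 1 lower, with a median of 0.02, against 2.58% and 1.74% over all genes. Without control 195-6 there were 4 higher and 5 lower, with a median of -0.11, and without each other library 2 higher and 0 lower. The higher genes included Bhlhe22, Neurod2 and Lmo3, and Dmrta2, a factor of cortical progenitors, was lower at 23.8 and 25.4 CPM and then 15.2, 19.7 and 16.8 CPM (-0.51 ± 0.12, adjusted p = 0.0286). In the thalamus and midbrain list Pou4f1 and Irx3 fell (-0.50 and -0.40, adjusted p = 0.0138 and 0.0372). In the hypothalamic list Avp, the vasopressin precursor, rose from 0.407 and 0.858 CPM to 2.47, 1.82 and 1.74 CPM (1.65 ± 0.31, adjusted p = 0.0138), and Otp, which specifies neuroendocrine neurons, fell (-0.47, adjusted p = 0.0144).

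Few genes of metabolism passed the test. None of 58 nuclear genes of oxidative phosphorylation, 13 mitochondrially encoded genes, 51 cytosolic ribosomal protein genes or 22 cholesterol synthesis genes passed in edgeR's test, and DESeq2 called 0, 0, 1 and 0 of them; an unadjusted p under 0.05 was met by 1, 3, 12 and 0. Without control 195-6, 18 of the 51 ribosomal protein genes were lower, with a median log2 change of -0.28 against -0.18 with all libraries. In that fit 835 of 17246 genes were lower. The ribosomal protein list is one of short transcripts (median 1120 bases). With all libraries, 0 of its genes were lower either with or without the length and GC offset. With the offset 1 was higher and its median was -0.11. The offset was not applied to the fit without control 195-6, so it does not bear on the 18. Among all 17498 genes tested, 3355 had an unadjusted p under 0.05 in edgeR's test. In the glycolysis list Hk2, a hexokinase, fell from 13.1 and 14.3 CPM to 8.36, 8.68 and 9.0 CPM (-0.66 ± 0.12, adjusted p = 0.00971). Ndrg1, a stress-responsive gene, rose from 28.2 and 33.3 CPM to 53.4, 50.6 and 47.9 CPM (0.72 ± 0.099, adjusted p = 0.00207). In the list of 18 imprinted growth genes the median log2 change was -0.04 and 7 changes were positive. Against 1.74% lower over all genes, 4 of the 18 fell, namely Dlk1 (-0.58), Mest (-0.38), Grb10 (-0.38) and Plagl1 (-0.30), with adjusted p between 0.00915 and 0.0461. Their count was 5 without control 195-6 and 2, 0, 0 and 1 without 260-2, 260-3, 195-2 and 303-3.

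The log2 change varied with transcript length. The median log2 change rose from -0.09 among the genes whose transcripts were shortest (1743 genes, median length 845 bases) to 0.10 among those whose transcripts were longest (1743 genes, median 8206 bases). Pairs within a litter differed along the same axis, by 0.15 to -0.16 for 260-3 minus 260-2 and by 0.11 to -0.13 for 195-6 minus 195-2. An offset for length and GC content flattened the trend to medians between -0.03 and 0.00. With it the mitosis median was -0.45, the replication median -0.41, the GABA and glycine receptor median 0.44 and the ion channel median 0.21. The postsynaptic median was 0.20 with it, against 0.30 without. The axon guidance list, with a median of 0.10 and 3 higher and 2 lower genes, had 2 higher and 6 lower with it and a median of 0.005.

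The pair of E14.5 litters was compared in the same data. Litter 303, with 1 library, differed from litter 195 in 22 genes (0.126% of those tested), 6 higher and 16 lower in litter 303. The lone library was assumed to vary as the others do, and its embryo and litter cannot be told apart. Of the 22 genes, 15 were pseudogenes or carried predicted-gene names. The 7 named protein-coding genes are given among the results for a closer look.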

How the data were processed

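RNA from mouse embryonic brain was sequenced as 1 library per embryo, and the 5 control libraries were used. The authors deposited 1 table of expected counts, which are estimated reads per gene without normalization, for 34866 genes. Per the submitters' processing notes, TopHat2 2.0.9, HTSeq 0.5.4p5 and edgeR 3.4.2 were used with mm10 and GRCm38; the step that shared out fractional counts is not named there. Per the labels' protocols, RNA was isolated on columns with DNase digestion and libraries were made with a TruSeq v2 kit, which does not mark the strand, so a gene and an overlapping antisense partner cannot be separated.

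Expected counts were rounded to whole numbers. Gene identifiers were matched to GENCODE M21 without version for 34652 genes. Tests used edgeR 4.0.16 in R 4.3.3: filterByExpr with a minimum count of 10, TMM factors, robust quasi-likelihood F tests and Benjamini-Hochberg adjustment over 17498 genes, with a call at an adjusted p under 0.05. The common biological coefficient of variation was 10.7%, with 3 residual degrees of freedom. The procedure was tested on simulated data; it made more false calls than its threshold implies when each gene had its own dispersion, so single calls near the threshold are less certain. The length and GC offset came from a smooth fit per library, and DESeq2 1.42.0 was an alternative. The E14.5 litters were compared in a model with litter as a factor.

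Named genes were the 10 of smallest p per direction with non-overlapping groups, up to 4 called members of each of 41 lists, and a set of defining markers; others are marked as chosen after their values were seen, except those that complete the count of a list. The members, lists and alternatives were chosen with earlier results of these data known. A few of the genes this rule names are not reported here.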

Additional observations from a re-analysis of the deposited data

Results flagged for a closer look

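At E14.5, 7 named protein-coding genes differed between litter 303, with control 303-3 alone, and litter 195, with controls 195-2 and 195-6, in edgeR's quasi-likelihood test of that difference. Kif1b, a kinesin motor of axonal transport, measured 492 and 435 CPM in litter 195 and 832 CPM in control 303-3, a log2 difference of 0.8451 (adjusted p = 0.0194). The E13.5 brains, at 749 and 667 CPM, lay nearer to control 303-3. The mitochondrially encoded mt-Nd3 measured 61.2 and 70.7 CPM against 112 CPM (0.7628, adjusted p = 0.0255). Gabra2, a GABA-A receptor subunit, measured 20.0 and 20.8 CPM against 35.3 CPM (0.7892, adjusted p = 0.04), while the E13.5 brains were at 17.9 and 17.8 CPM.

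In the other direction, Duxbl3, a double homeobox gene with close copies, measured 5.91 and 7.33 CPM in litter 195 against 1.53 CPM in control 303-3 (-2.112, adjusted p = 0.00388). Rpl31, a ribosomal protein gene, measured 216 and 257 CPM against 123 CPM (-0.948, adjusted p = 0.0142), with 231 and 258 CPM at E13.5. Arrdc4 measured 65.6 and 70.6 CPM against 36.5 CPM (-0.8996, adjusted p = 0.0142). Gvin1, an interferon-inducible GTPase gene with close copies, measured 0.922 and 0.511 CPM in litter 195 and had 0 counts in control 303-3 (adjusted p = 0.0255). Its fitted log2 difference of -7.977 depends on the prior count. Against a floor of 3 counts in that library, Gvin1 was at least 10-fold lower. Copies that share reads make Duxbl3, Rpl31 and Gvin1 uncertain, and the part of litter or of read sharing in these differences was not tested.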

How the results depend on the processing

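The 452 higher and 305 lower genes became 464 and 311 with RLE factors, 373 and 321 with upper quartile factors, and 400 and 287 with the E14.5 litters weighted equally. They became 1080 and 683 with no filter on low counts, 773 and 472 in DESeq2, 244 and 131 with non-robust dispersion, and 699 and 613 with the length and GC offset. Leaving out 1 library gave 52 to 1223 higher and 22 to 835 lower genes. Litter 195 alone gave 154 and 77, and litter 303 alone 283 and 147. The 22 genes between the E14.5 litters became 19 to 80 without 1 library of litter 195. No named gene changed direction where it was called, and 27 of the 106 called named genes passed in all 16 alternatives. List medians moved by more than their spread in 16 of 41 lists without 260-3, in 10 with litter 303 alone and in 7 with the offset. The cause of these changes was not tested. No paired analysis was possible because each litter holds 1 stage. With 2 and 3 embryos per stage, small changes of single genes are at the limit of detection, and low-count genes such as Hbb-bh1, Hoxd8 and Avp rest on few reads.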

Other observations

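Some genes outside the lists, chosen after their values were seen, changed by more than most. Car8, a carbonic anhydrase-related protein of Purkinje cells, measured 5.19 and 4.67 CPM at E13.5 and 12.6, 10.8 and 11.5 CPM at E14.5, a log2 change of 1.24 ± 0.14 (adjusted p = 0.0005). Aldh1a1, a retinoic acid synthesising enzyme also found in midbrain dopamine neurons, measured 2.62 and 2.50 CPM and then 5.49, 6.5 and 6.21 CPM (1.24 ± 0.17, adjusted p = 0.00182). Cdhr1, a cadherin of mitral cells of the olfactory bulb, measured 5.39 and 3.70 CPM and then 12.7, 9.50 and 12.1 CPM (1.33 ± 0.18, adjusted p = 0.00284). Tac2, the neurokinin B precursor, measured 0.432 and 0.361 CPM and then 1.11, 0.932 and 1.29 CPM (1.48 ± 0.30, adjusted p = 0.018). All 4 were higher in every E14.5 brain.

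Olig3, a factor of dorsal hindbrain and thalamic progenitors, fell from 4.96 and 5.28 CPM to 1.65, 1.53 and 2.39 CPM (-1.47 ± 0.20, adjusted p = 0.00234). E2f2, an activator of S-phase genes, fell from 18.6 and 19.7 CPM to 10.8, 12.7 and 9.59 CPM (-0.79 ± 0.12, adjusted p = 0.00533). Cdc25b, a phosphatase that triggers mitosis, fell from 46.0 and 48.1 CPM to 31.5, 33.9 and 33.7 CPM (-0.51 ± 0.087, adjusted p = 0.00861). Btg3, an antiproliferative gene, fell from 18.5 and 18.6 CPM to 10.6, 11.9 and 9.88 CPM (-0.78 ± 0.11, adjusted p = 0.00283). Igfbp3, an insulin-like growth factor binding protein, rose from 16.2 and 16.2 CPM to 28.3, 28.4 and 29.3 CPM (0.82 ± 0.097, adjusted p = 0.00079), with a spread of about 1 CPM among the E14.5 brains.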
